A study of Drosophila melanogaster with 4 samples.

Results

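The Turandot genes of Drosophila encode small secreted stress proteins, and Socs36E encodes a suppressor of cytokine signalling that is a widely used readout of the JAK-STAT pathway. The 8 genes described here, TotA, TotB, TotC, TotF, TotM, TotX, TotZ and Socs36E, were chosen by name from the 15340 genes of the deposited table, and all 8 were present. RNA labelled as that of whole second-instar larvae was sequenced after removal of ribosomal RNA, in 2 extractions from Xbp1 mutants and 2 from controls. The mutants were homozygous for Xbp1ex79 (Xbp1ex79-/-), an imprecise excision allele of the gene for an unfolded protein response transcription factor, and these animals do not develop past this stage. The controls (Xbp1+/+) came from a precise excision of the same insertion line that gave rise to ex79, and the labels name no treatment for either group. How many larvae went into each extraction is not given in the sources used here, so the p-values measure the spread between these extractions only. The comparison asks how the transcripts of these stress genes differ when Xbp1 is missing.

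Turandot proteins are made mainly in the fat body and released into the hemolymph after infection, wounding, heat or other stress, and they have been reported to protect host tissue against antimicrobial peptides. In adult flies, TotA is switched on when the cytokine Upd3, released by hemocytes, binds the receptor Domeless and the kinase Hopscotch activates the transcription factor Stat92E. The MAP kinase kinase kinase Mekk1 and the NF-κB factor Relish are further inputs to TotA. Socs36E is itself a target of Stat92E, and its product dampens the receptor complex that induced it, which makes it a feedback inhibitor.

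The reads on genes ranged from 31416284 to 38601267 per library, and 3 reads corresponded to a normalized count between 2.69 and 3.62. Xbp1 had normalized counts of 6087 and 5953 under the mutant label against 5521 and 7378 under the control label, a difference of -0.08 on the log2 scale (limma, adjusted p = 0.852). The groups overlapped, so the level of Xbp1 did not tell the mutant columns from the control columns. The paper describes ex79 as a null allele with a deletion that takes in the start codon. Neither group had the lower count that such a deletion could bring, and exchanging the columns would not alter this. Where in the gene the reads lie cannot be seen from counts per gene. The antimicrobial peptide genes CecB, CecC and Dro were called lower under the mutant label by DESeq2 (adjusted p = 1.71e-07, 2.03e-04 and 1.83e-04), whereas limma called none of them. The study describes these genes with the opposite direction, as raised in the mutants, which puts the column labels in doubt. By qRT-PCR the paper also reports induction of antimicrobial peptide transcripts in the mutants, with drosocin, diptericin and drosomycin examined. Mtk and Dpt, also raised in the study, lay wholly lower under the mutant label (DESeq2, adjusted p = 0.104 and 0.204). Of the 12 antimicrobial peptide genes tested, 6 lay wholly lower and 6 overlapped. Drs, raised in the study as well, was among the overlapping genes, at 13048 and 1264 under the mutant label against 2685 and 2406. Whether the mutant and control columns are exchanged could not be settled from these files, and an exchange would turn the sign of every difference given here, that of Socs36E included. Every direction below is therefore one between groups as labelled. The label of whole larvae was compared with marker genes of tissues. Fat body markers, led by the storage protein genes Lsp1beta and Lsp2 and by Fbp1, summed to normalized counts of 6484258 to 9222327 per library, and these 3 genes are known as third-instar genes. Muscle markers summed to only 309 to 634, and per kilobase of exon myosin heavy chain (Mhc) had a mean normalized count of 22.2 against 718518 for Lsp2. Of the midgut markers, alphaTry, betaTry, Jon99Ci and Amy-p had a mean under 10. Midgut markers summed to 427 to 4310, and the highest sum, in control extraction 1, came from the protease genes Jon65Aiii and Jon65Aiv. Transcripts of fat body markers thus far outnumbered those of muscle or midgut markers. Such levels of third-instar genes, with so few muscle and midgut transcripts, differ from what the label of whole second-instar larvae describes. The stage and tissues of the samples could not be settled from these data. Because the samples are bulk RNA, fewer cells of a type and less RNA per cell cannot be told apart.

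**Figure D1:**
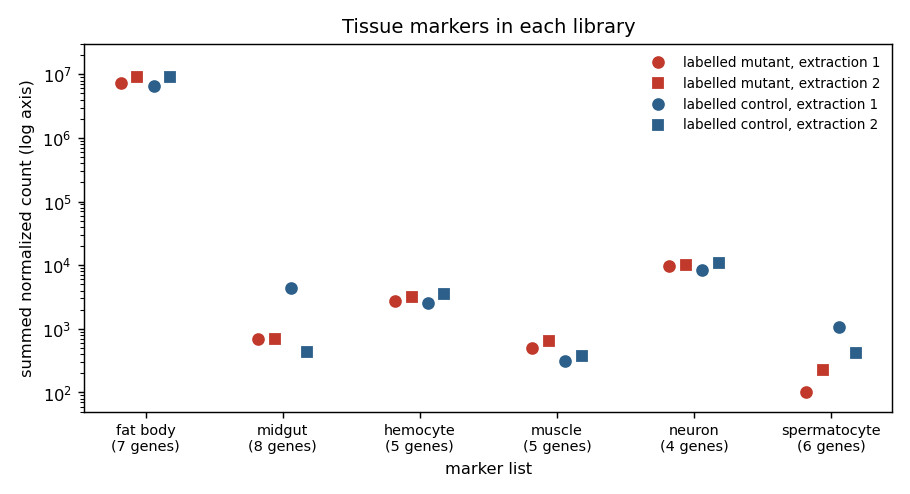
Summed normalized counts (log axis) of 6 lists of tissue marker genes in each of the 4 libraries; each point is a library, red for the mutant label and blue for the control label. The 7 fat body markers lie between 6484258 and 9222327, and the 5 muscle markers between 309 and 634. Spermatocyte markers are at 101 to 228 under the mutant label and at 414 to 1087 under the control label.

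TotA was abundant in every library and differed little between the groups, Socs36E was about 4-fold higher in larvae labelled mutant, and the other 6 Turandot genes had few reads. With limma and Benjamini-Hochberg adjustment over the 10500 genes whose mean normalized count reached 10, none of the 5 members tested passed 0.05. In that test 0% of all genes were called lower and 0.00952% higher, the latter being CG9451 alone, while an unadjusted p under 0.05 was reached by 760 genes on the lower side and 723 on the higher. Among the members, Socs36E alone had an unadjusted p under 0.05. DESeq2 on the recovered reads called 1.8% of 9391 genes lower and 1.9% higher, and Socs36E was the only member called, on the higher side. Of the members, DESeq2 gave an adjusted p to TotA, TotC and Socs36E only, so it made no call on TotB or TotM. TotF, TotX and TotZ had means under 10 and were not tested by limma. Of the 5 tested, Socs36E and TotB had each mutant value above each control value, TotA and TotC had each below, and TotM overlapped. Over all genes tested, 26.2% lay wholly higher and 27.9% wholly lower in this way, so a separation of the groups by itself sets none of these genes apart.

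**Figure D2:**
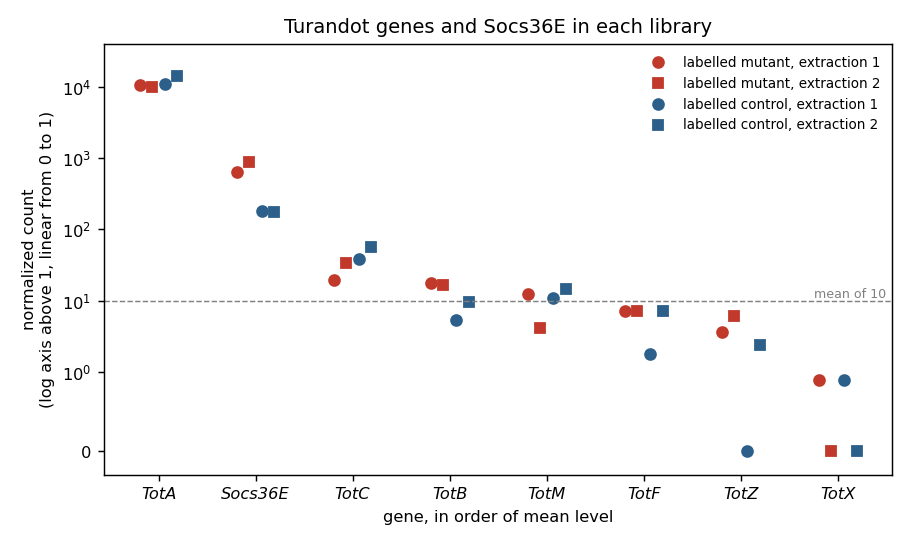
Normalized counts of the 8 genes in each library, on an axis that is logarithmic above 1 and linear from 0 to 1; points are single libraries. TotA lies at 10113 to 14411 in all 4 libraries, Socs36E separates the groups, and TotF, TotZ and TotX stay under the dashed line at a count of 10.

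TotA (FBgn0028396) is the founding member of the family, named for the Turandot protein found in the blood of stressed flies. In dm6 the gene runs along chromosome arm 3R, plus strand, from 20871036 to 20871700, with 579 bp of exon in 2 blocks and no other annotated gene over it. Normalized counts were 10765 and 10113 under the mutant label and 10906 and 14411 under the control label. Both mutant values were lower, but mutant extraction 1 and control extraction 1 were nearly level, and control extraction 2 stood above the other 3 libraries. The means were 10439 ± 461 (SD, n = 2) and 12659 ± 2478 (SD, n = 2). The log2 fold change was -0.26 ± 0.22 (SE; limma, adjusted p = 0.541), with a 95% interval that runs from 0.564-fold to 1.23-fold. That interval rests on 2 extractions per group and is not adjusted for the number of genes. It takes in no change at all, and its bounds are not a limit of detection. DESeq2 on the recovered reads gave -0.28 with an adjusted p of 0.699.

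Per kilobase of exon, TotA had a mean normalized count of 19946, which placed it 41st among the 10359 tested genes with an annotated length. It held 99.3% to 99.5% of the normalized counts of the 7 Turandot genes in every library. The other 6 together summed to between 57.6 and 90.4 per library. The profile of the family in these larvae was thus that of TotA alone, and the total for the 7 genes, 10180 to 10827 under the mutant label and 10964 to 14502 under the control label, moved with it. By the distance between log2 profiles centred on their own means, the 3 genes most like TotA over the 4 libraries were Cdk4, CG6621 and caz, at distances of 0.05, 0.06 and 0.06. Their log2 fold changes were -0.22, -0.25 and -0.22, and each had its highest value in control extraction 2, as TotA did.

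TotC, TotB and TotZ follow TotA on the plus strand of 3R, at gaps of 1287, 357 and 3213 bases from one gene to the next. TotX lies farther on, 26553 bases past TotZ and on the minus strand, within the span of Grik on the opposite strand. The whole stretch from TotA to TotX covers 34.5 kb. Within it, TotA stood far above its neighbours. Per kilobase of exon the mean normalized counts were 19946 for TotA, 70.3 for TotC, 23.5 for TotB, 5.30 for TotZ and 0.746 for TotX. In single libraries the count of TotC came to 0.183% to 0.393% of that of TotA, whose exons are of similar length. These genes are paralogs, and whether some of the few reads on TotB and TotC came from TotA transcripts was not tested.

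TotC (FBgn0044812) had normalized counts of 19.7 and 33.8 under the mutant label and 38.7 and 56.7 under the control label, resting on 22 to 47 reads per library. The mutant values were the lower ones, though 33.8 and 38.7 lay close together. Its log2 fold change was -0.83 ± 0.49 (SE; limma, adjusted p = 0.415). TotB (FBgn0038838), 357 bases away, went the other way in value, with 17.9 and 16.4 under the mutant label and 5.4 and 9.65 under the control label. These rest on 20 and 16 reads against 6 and 8. The log2 fold change of TotB was 1.14 ± 0.61 (SE; limma, adjusted p = 0.382), and its interval ran from 0.75-fold to 6.44-fold. The count of TotB relative to TotC was 0.909 and 0.485 under the mutant label and 0.140 and 0.170 under the control label, without overlap, but this ratio was chosen after the values were seen and was not tested.

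TotZ (FBgn0044809) had 4 and 6 reads under the mutant label and 0 and 2 under the control label. Pooled over each group and divided by the size factors, the ratio was 4.64, with an exact 95% counting interval of 0.988 to 43.5 that covers counting error only. TotX (FBgn0044810) had 1 read in mutant extraction 1, 1 in control extraction 1 and none in the other 2 libraries. At this depth TotX was at or under the floor of 3 reads in each library, which corresponds to a normalized count of at most 3.62, and no fold was computed.

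The remaining Turandot genes lie on chromosome arm 2L. TotM (FBgn0031701; plus strand, 5329857 to 5330464) is induced in adult flies by infection and by stress signalling through Mekk1. Its normalized counts were 12.5 and 4.10 under the mutant label and 10.8 and 14.5 under the control label. The groups overlapped, and the low value of mutant extraction 2 rests on 4 reads. The log2 fold change was -0.70 ± 0.74 (SE; limma, adjusted p = 0.626), and without mutant extraction 2 it was 0.00. TotF (FBgn0044811; minus strand, 19911815 to 19912377) had normalized counts of 7.17 and 7.18 against 1.80 and 7.24. Control extraction 1, with 2 reads, was the only library of the 4 under 7. TotF lies within the span of sick on the opposite strand, and 560 bases from it lies TotE, listed in the file as Victoria, the one other Turandot gene found. TotE had between 1 and 4 reads in each library, so that it joined TotF, TotX and TotZ at the bottom of the family.

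Socs36E (FBgn0041184) lies on the minus strand of 2L from 18138675 to 18152417, with 3503 bp of exon in 4 blocks, and the noncoding RNA gene CR44478 overlaps its span on the other strand without touching its exons. Its normalized counts were 629 and 896 under the mutant label and 179 and 175 under the control label. Both mutant values were more than 3 times either control value, and mutant extraction 2 was the higher. The means were 763 ± 189 (SD, n = 2) and 177 ± 3.03 (SD, n = 2). The controls lay closer together than their counting error, since the exact 95% Poisson intervals of their normalized counts, from 199 and 145 reads, were 155 to 206 and 148 to 206. The intervals of the mutant libraries, 583 to 677 and 838 to 957, lay well above these.

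The log2 fold change of Socs36E was 2.08 (standard error 0.26), a fold of 4.22 with a 95% interval of 2.69 to 6.64. Among the 10500 genes tested by limma it ranked 21st by p and 123rd by log2 fold change, but its adjusted p was 0.198, so that it did not pass 0.05. By DESeq2 on the recovered reads it ranked 30th by p, with a log2 fold change of 2.11 and an adjusted p of 1.56e-06. By edgeR's quasi-likelihood test on the same reads the adjusted p was 0.268. Leaving out each library in turn gave log2 fold changes of 1.82 to 2.33. The size of the difference was thus much the same in each fit, whereas the call differed between the tools. Per kilobase of exon, Socs36E had 218 under the mutant label and 50.5 under the control label, against 50.5 and 90.0 for TotC. By these means the order of Socs36E and TotC changed with the group, but TotC rests on 22 to 47 reads per library and the order was not tested. TotB, TotM and TotF, at 23.5, 19.0 and 11.6 per kilobase over all libraries, overlapped each other and could not be ranked beyond their spread.

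The lists of tissue markers did not all move in the direction of Socs36E. Muscle markers summed to normalized counts of 503 to 634 under the mutant label and 309 to 373 under the control label. Of these, 3 of 5 genes were higher in both mutant libraries, where 26.2% of all genes tested were. Spermatocyte markers went the other way, lower in both for 6 of 6 genes, where 27.9% of all genes tested were. Fat body markers (7311167 to 9222327 against 6484258 to 9011181) and hemocyte markers (2759 to 3211 against 2522 to 3574) overlapped. So did neuron markers (9706 to 10153 against 8300 to 10815) and midgut markers (684 to 704 against 427 to 4310). The midgut sums hide differences in both directions. Of 4 midgut genes tested, 2 (Myo31DF and Mal-A1) were wholly higher and 2 (Jon65Aiii and Jon65Aiv) wholly lower. DESeq2 called Jon65Aiii and Jon65Aiv lower, where it called 1.8% of all genes lower. The part of other tissues in the difference of Socs36E was not tested.

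**Figure D3:**
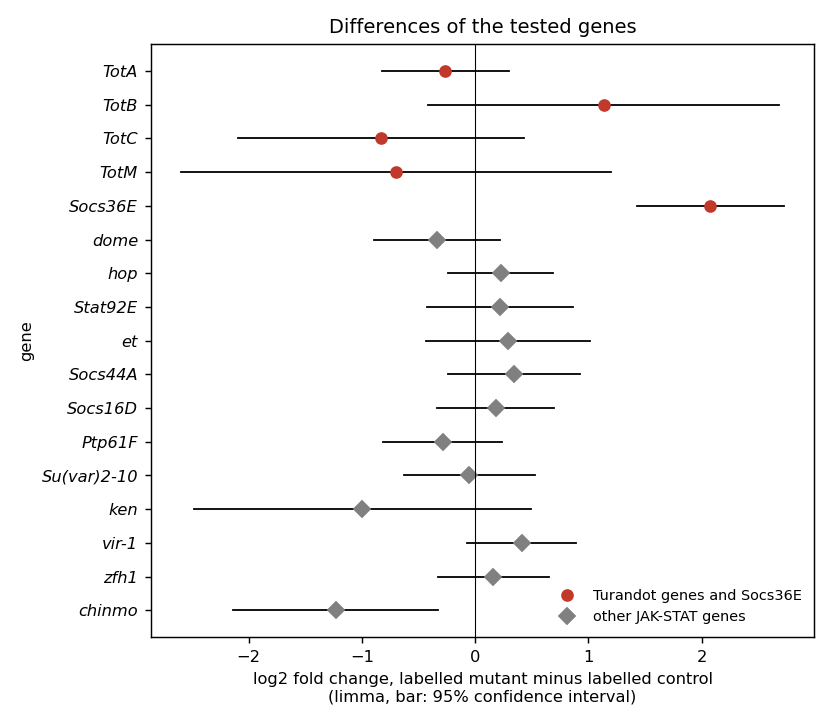
Log2 fold changes, mutant label minus control label, with 95% confidence intervals from limma that are not adjusted for the number of genes. Red points are the 5 members tested and grey diamonds the 12 other JAK-STAT genes tested. Socs36E stands at 2.08 and TotA at -0.26, and chinmo is the only grey point whose interval leaves out 0.

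The other JAK-STAT genes with enough reads to test had smaller differences than Socs36E. Of the 16 other pathway genes listed, 12 had a mean of at least 10, and limma called 0 of them lower and 0 higher, with 1 (chinmo, lower) at an unadjusted p under 0.05. DESeq2 called 1, again chinmo. Of the 12, 4 lay wholly higher and 4 wholly lower under the mutant label, against 26.2% and 27.9% of all genes tested. Their median log2 fold change was 0.17 against -0.03 for all genes tested. Their log2 fold changes ran from -1.23 to 0.41.

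The ligands were at the edge of detection. Reads on upd3, whose product is the cytokine that acts on TotA in adult flies, numbered 19 and 4 under the mutant label and 1 and 0 under the control label. Both mutant libraries were thus higher, on very few reads, and most of them came from mutant extraction 1. The ratio of the pooled reads, divided by the size factors, was 21.3, with an exact 95% counting interval of 3.46 to 879. That interval covers counting error only and leaves out the spread between extractions. Limma without the filter on low values gave upd3 an adjusted p of 0.345. The related ligand upd2 had normalized counts of 0.00 and 3.08 against 1.80 and 1.21. For upd1, listed as os, they were 2.69 and 9.23 against 14.4 and 9.65, so that the 3 ligands did not move as a group.

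The receptor, kinase and transcription factor were measured at ample depth. Domeless (dome) had 363 and 310 against 450 and 399, which came to -0.34 on the log2 scale (limma, adjusted p = 0.441). The kinase gene hop had 804 and 815 against 731 and 655, and its log2 fold change was 0.23 (limma, adjusted p = 0.529). Stat92E had 10306 and 9626 against 6986 and 10464, which overlapped. Set against the level of Stat92E in the same library, Socs36E came to 6.10% and 9.31% under the mutant label and to 2.56% and 1.67% under the control label, without overlap; this comparison was added after the values were seen. The other SOCS genes, Socs44A and Socs16D, had log2 fold changes of 0.34 and 0.18 (adjusted p = 0.452 and 0.648 from limma), so the gap of Socs36E was not matched in its relatives. The test of the difference between these genes was not run.

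Further targets of Stat92E had smaller differences or the opposite sign. For vir-1, a gene induced by viral infection through this pathway, the normalized counts were 8839 and 8421 against 5924 and 7109, with both mutant values higher. Its log2 fold change was 0.41 (limma, adjusted p = 0.35). Diedel, a secreted immune regulator, had only 1 and 0 reads against 2 and 2. The transcription factor gene zfh1 had a log2 fold change of 0.16, and chinmo, which acts downstream of Stat92E in stem cells, was lower in value instead, with 418 and 449 against 1429 and 726. DESeq2 gave chinmo an adjusted p of 0.0462 and limma one of 0.347.

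**Figure D4:**
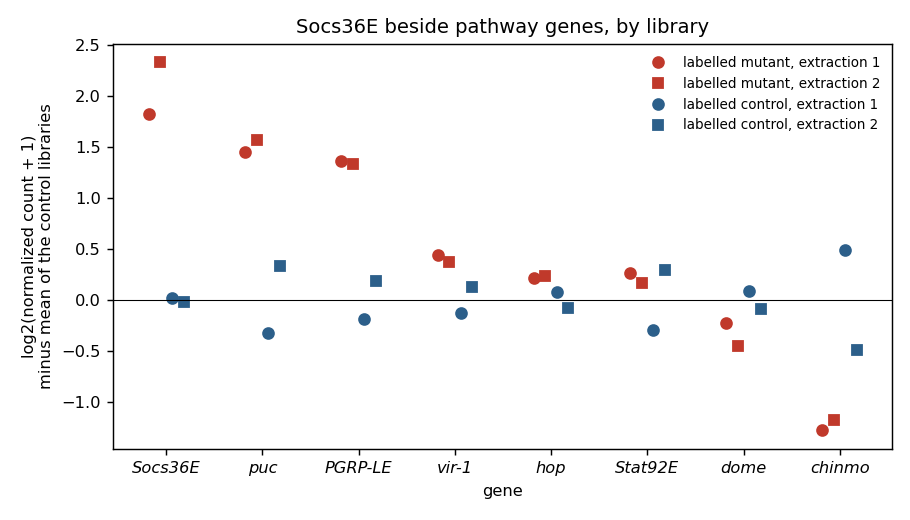
For each gene, the log2(normalized count + 1) of every library minus the mean of the 2 control libraries; points are single libraries, with circles for extraction 1 and squares for extraction 2. Socs36E, puc, PGRP-LE, vir-1 and hop sit above their controls in both libraries labelled mutant, chinmo and dome sit below, and Stat92E overlaps. The genes shown are a selection: puc and PGRP-LE have the highest log2 fold changes of their lists, and chinmo the lowest of the JAK-STAT genes.

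Mekk1 and Relish, the further inputs to TotA named above, belong to the lists of stress MAP kinase and Imd genes. Limma called no gene of these lists, and none lay wholly lower under the mutant label. Mekk1 had 1117 and 1060 against 753 and 1038, which differed by 0.30 on the log2 scale (limma, adjusted p = 0.502). Of 9 stress MAP kinase genes limma called 0, with 2 at an unadjusted p under 0.05. Wholly higher under the mutant label were 6 of the 9, against 26.2% of all genes tested. The largest value was that of puc, a JNK phosphatase that is a transcriptional target of its own pathway and so a feedback inhibitor as Socs36E is. Its normalized counts were 1231 and 1331 against 356 and 563, a log2 difference of 1.51 ± 0.27 (SE; limma, adjusted p = 0.322). DESeq2 called it higher with an adjusted p of 0.00351. With each library left out in turn, the log2 fold change of puc ran from 1.18 to 1.84.

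Relish (Rel), the NF-κB factor of the Imd pathway, had 6763 and 5941 against 3981 and 4873, a difference of 0.53 on the log2 scale with both mutant values higher (limma, adjusted p = 0.347). PGRP-LE, an intracellular peptidoglycan sensor of that pathway, had 289 and 283 against 98.1 and 127. DESeq2 called PGRP-LE higher with an adjusted p of 0.0242, while limma gave 0.325. Of the 7 Imd genes, limma called 0, with 3 higher at an unadjusted p under 0.05, and 5 lay wholly higher, against 26.2% of all genes tested. The median log2 fold change was 0.50 for these genes and 0.37 for the MAP kinase genes. TotA, which Mekk1 and Relish act on in adult flies, had the value of -0.26 given above.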

How the data were processed

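The authors aligned paired 50 nt reads from stranded total RNA libraries to dm6 with TopHat2 (version 2.1.1), counted them per gene with HTSeq (0.6.1) and normalized them with DESeq2, per the labels and the methods. The strand setting of the counting is not given in the sources used here. The deposited values are a signal, that is, raw counts scaled by each library's size factor. All values (100%) came out as whole reads within 0.001 of a read, a tolerance widened in proportion for the largest counts, which recovered the raw counts. A ribosomal RNA pseudogene, CR41602, held 37.2% to 43.7% of the reads. HTSeq, by default, leaves out reads that match several genes, which can lower or shift counts of paralogs.

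Columns were matched to samples by name. Groups were compared with limma (3.58.1, R 4.3.3; lmFit, eBayes with trend) on log2(normalized count + 1), with a mean of at least 10, Benjamini-Hochberg adjustment and a threshold of 0.05. The pseudocount shrinks the fold changes of weakly expressed genes. An exact permutation test of 2 against 2 cannot give a two-sided p under 0.333. Alternatives were other pseudocounts, filters and scalings, eBayes without trend, each library left out, a replicate block, and count models in DESeq2 (1.42.0) and in edgeR (4.0.16) with those raw counts as input. The tests were checked on a single set of simulated counts, with 200 genes changed 4-fold and a spread set by expression level alone. There each missed a large part of the known changes. The share of false calls was above the nominal level for limma and DESeq2, highest for DESeq2. Calls by DESeq2 alone are therefore taken as less certain, though the spread in these data may differ from the simulated one. Positions and exon lengths are from Ensembl 115 on dm6; 11817 names matched exactly, 3236 by synonym and 287 not at all. Named genes were the members, genes of the lists (JAK-STAT, stress MAP kinase, Imd, antimicrobial peptide, heat shock, Turandot and tissue markers), Xbp1 and the 3 genes nearest to TotA in profile. Lists are described by counts and medians. The members and lists were chosen with earlier results of these data known, and no list result is independent support. Without molecular identifiers PCR copies are counted as reads, so intervals and floors cover counting error only. Sequences of these genes were not used here.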

Additional observations from a re-analysis of the deposited data

How the results depend on the processing

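The log2 fold changes of TotA, TotB, TotC and Socs36E kept their direction in every alternative run, and that of TotM in all but one. Against 0 genes lower and 1 higher in the main test, there were 3 higher with no filter on low values, 0 higher with eBayes without trend, 4 lower and 10 higher when libraries were rescaled to equal totals, and 4 lower and 12 higher with quantile normalization. DESeq2 on recovered reads called 169 lower and 178 higher, and of the members 0 lower and 1 higher, Socs36E. It gave an adjusted p to TotA, TotC and Socs36E alone among the members, and with the replicate block to TotA and Socs36E alone. Under a replicate block, limma called 0 genes lower and 0 higher (861 genes at an unadjusted p under 0.05), and DESeq2 with the replicate block 92 lower and 88 higher, with 1 member higher, again Socs36E (adjusted p = 4.36e-04, against 0.528 from limma with the block); DESeq2 with the block gave PGRP-LE an adjusted p of 0.207 and chinmo one of 0.103. Deviations of same-numbered libraries correlated at -0.44 across genes, which are not independent replicates, so the numbers were not taken as pairs; a crossed replicate block, chosen after seeing the data, called 1410 lower and 390 higher. Leaving out each library in turn, with a lone library assumed to vary like the other group, gave 0 to 131 genes lower and 0 to 39 higher, the most without mutant extraction 2, and 0 to 0 members in either direction. The cause was not tested.

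Over the left-out libraries, the log2 fold changes of TotA ran from -0.47 to -0.06, of TotB from 0.769 to 1.503, of TotC from -1.21 to -0.46 and of TotM from -1.41 to 0.0034. Those that changed sign were Dredd (-0.37 to 0.34), Mpk2 (-0.010 to 0.28), PGRP-LC (-0.081 to 0.27), Stat92E (-0.071 to 0.51), Su(var)2-10 (-0.23 to 0.13), bsk (-0.34 to 0.035) and et (-0.061 to 0.64). Quantile normalization moved the median of all genes from -0.03 to 0.07, and under it Dredd came to 0.15, Stat92E to -0.049, bsk to 0.051 and zfh1 to -0.0061. The adjusted p of Socs36E with all 4 libraries ran from 1.56e-06 to 0.528. Depth limits TotF, TotX, TotZ and the ligands, which rest on under 20 reads in each library.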

Other observations

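Antimicrobial peptide genes, whose products Turandot proteins have been reported to shield host tissue from, were lower in value or overlapping under the mutant label, which is the opposite of the direction the study describes for several of them, so that the labels themselves are in doubt. Of 14 listed, 12 had a mean of at least 10, and limma called 0, with 5 lower at an unadjusted p under 0.05. DESeq2 called 3 lower, CecB, CecC and Dro. Wholly lower under the mutant label were 6 of the 12, against 27.9% of all genes tested, and the median log2 fold change was -2.15. Drs, which encodes the antifungal peptide Drosomycin, had normalized counts of 13048 and 1264 under the mutant label against 2685 and 2406, and CecB, a cecropin gene, 3.58 and 7.18 against 528 and 72.4.

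Heat shock protein genes, which respond to some of the same stresses as the Turandot genes, were mostly higher in value in larvae labelled mutant. Of 13 listed, 8 had a mean of at least 10, and limma called 0, with 4 higher and 1 lower at an unadjusted p under 0.05. By DESeq2 on recovered reads 0 were called, and 6 of the 8 lay wholly higher, against 26.2% of all genes tested. Hsp83, the cytosolic Hsp90 gene, had normalized counts of 47781 and 46806 against 28977 and 27762, while Hsp27 had 3123 and 3190 against 5166 and 5404. No read was listed for 4 of the 13 in any library, namely Hsp22, Hsp70Ab, Hsp70Bb and Hsp70Bbb. HTSeq by default leaves out reads that match several genes, so counts of 0 for Hsp70 copies do not show that these genes were silent.

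By the distance between centred log2 profiles over the 4 libraries, the genes most like Socs36E were CG31324, CG13955 and Best1, at 0.28, 0.28 and 0.30; this ranking was chosen after the values were seen. CG31324 had normalized counts of 273 and 441 against 83.7 and 98.9, and Best1, a bestrophin chloride channel gene, 280 and 319 against 75.6 and 82.0.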
